A study of Mus musculus with 6 samples.

Results

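The PPAR, PGC-1 and ERR regulators are the nuclear receptors Ppara, Pparg, Ppard, Esrra, Esrrb and Esrrg, the coactivators Ppargc1a and Ppargc1b, and the corepressor Nrip1. These 9 genes were chosen by name, with earlier results of these data known. All 9 were found among the 54385 rows of the count table and passed the filter on low counts. Transcripts were measured in the interscapular brown fat depot of C57BL/6N mice 20 weeks old, fed chow until 8 weeks of age, then a high-fat diet for 12 weeks, and kept at 4 °C for 24 h. Wild type (wt/wt) had 3 libraries, as had the group of ADCY3∆AT mice, a knockout of adenylyl cyclase 3-AT, a form of the membrane enzyme that turns ATP into cyclic AMP. High-fat diet and cold were common to both genotypes, so no group shows either genotype in warmth or on chow. How the ADCY3∆AT line was made, and whether each library came from 1 animal, is not recorded in the sources used here, so the p-values cover only the spread among these libraries, part of which may be technical.

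PPARs are receptors for fatty acids and their derivatives that bind DNA as partners of the RXR receptors. PGC-1 coactivators have no DNA binding domain of their own and raise transcription when they dock on PPARs, ERRs and other factors, and ERRs are orphan receptors that drive genes of mitochondrial respiration. In brown fat, cold acts through noradrenaline, cyclic AMP and protein kinase A to raise Ppargc1a, whose product supports Ucp1 and mitochondrial genes, while Nrip1 (RIP140) represses many of the same targets.

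The gene starts of Ppara and Ppargc1a are shown because their log2 fold changes, ADCY3∆AT relative to wild type, had opposite signs. These were 0.32 for Ppara and -0.17 for Ppargc1a, and neither passed in edgeR's quasi-likelihood test (adjusted p = 0.158 and 0.664). The genotype groups overlapped for Ppargc1a, so a lower level of it is not established. Cyclic AMP was not measured in these libraries, and its part in either difference was not tested. The 250 bases before the RefSeq start (GRCm38.p6) are chr15:85735526-85735775 on the plus strand for Ppara and chr5:51567726-51567975 on the minus strand for Ppargc1a. They are written 5′ to 3′ along each gene, and capitals mark TGACG, the shorter core of the cyclic AMP response element, on either strand.
Ppara: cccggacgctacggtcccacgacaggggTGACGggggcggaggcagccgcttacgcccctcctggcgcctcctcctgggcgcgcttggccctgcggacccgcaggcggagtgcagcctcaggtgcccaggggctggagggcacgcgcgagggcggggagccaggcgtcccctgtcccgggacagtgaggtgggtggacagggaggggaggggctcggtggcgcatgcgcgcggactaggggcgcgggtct
Ppargc1a: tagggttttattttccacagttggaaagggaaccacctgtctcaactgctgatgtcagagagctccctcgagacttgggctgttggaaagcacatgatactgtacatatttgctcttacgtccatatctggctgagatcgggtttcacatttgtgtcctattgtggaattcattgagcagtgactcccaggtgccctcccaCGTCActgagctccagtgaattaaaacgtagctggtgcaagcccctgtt
Each window held 1 match. Counting back from -1, the base before the start, it began at -222 in Ppara on the gene's own strand. In Ppargc1a it began at -49 and lies on the other strand, so the printed strand reads CGTCA. Among the other regulators, TGACG began at -4 in the Ppard window and at -158 and -117 in the first Esrrb window, all on the gene's own strand. Over all 32851 RefSeq windows of 300 bases (250 before and 50 after a start), 20.81% held TGACG on some strand, so a match is common. Neither printed window, nor any of the 15 windows of 300 bases found for 8 of the 9 regulators, held the whole element TGACGTCA (1.79% of all windows), the PPAR direct repeat AGGTCANAGGTCA (0.03957%), the ERR element TCAAGGTCA (0.4231%) or the E-box CACGTG (7.15%) on either strand. AGGTCA, the core contained in both receptor elements and present in 16.26% of windows, was found in both of the first 2 Pparg windows. The letters cover these windows only, and other start sites of Ppargc1a, including the distal one used in brown fat, were not searched. The printed Ppara bases lie inside the annotated span of the gene, which starts at 85734983, and the bases before that start were not searched.

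None of the 9 regulators passed in edgeR's quasi-likelihood test at an adjusted p of 0.05, where 0.00552% of the 18114 genes tested passed (1 gene). With no adjustment, p was under 0.05 for 3 regulators, against 11% of all genes: Ppara and Ppargc1b were higher in ADCY3∆AT (5.23% of all genes) and Esrrb was lower (5.78% of all genes). DESeq2 called 1 regulator, Ppara, as higher, where 0.441% of the 19977 genes it tested were called higher and 0.706% lower. Groups did not overlap for Ppara and Ppargc1b, both higher in ADCY3∆AT (7.68% of all genes, with 8.83% lower), and overlapped for the other 7. The median log2 fold change was -0.05 over the 9 regulators and 0.00 over all genes tested, with 4 positive and 5 negative. Because the 9 regulators were chosen with earlier results known, their counts beside the shares of all genes are descriptive.

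**Figure D1:**
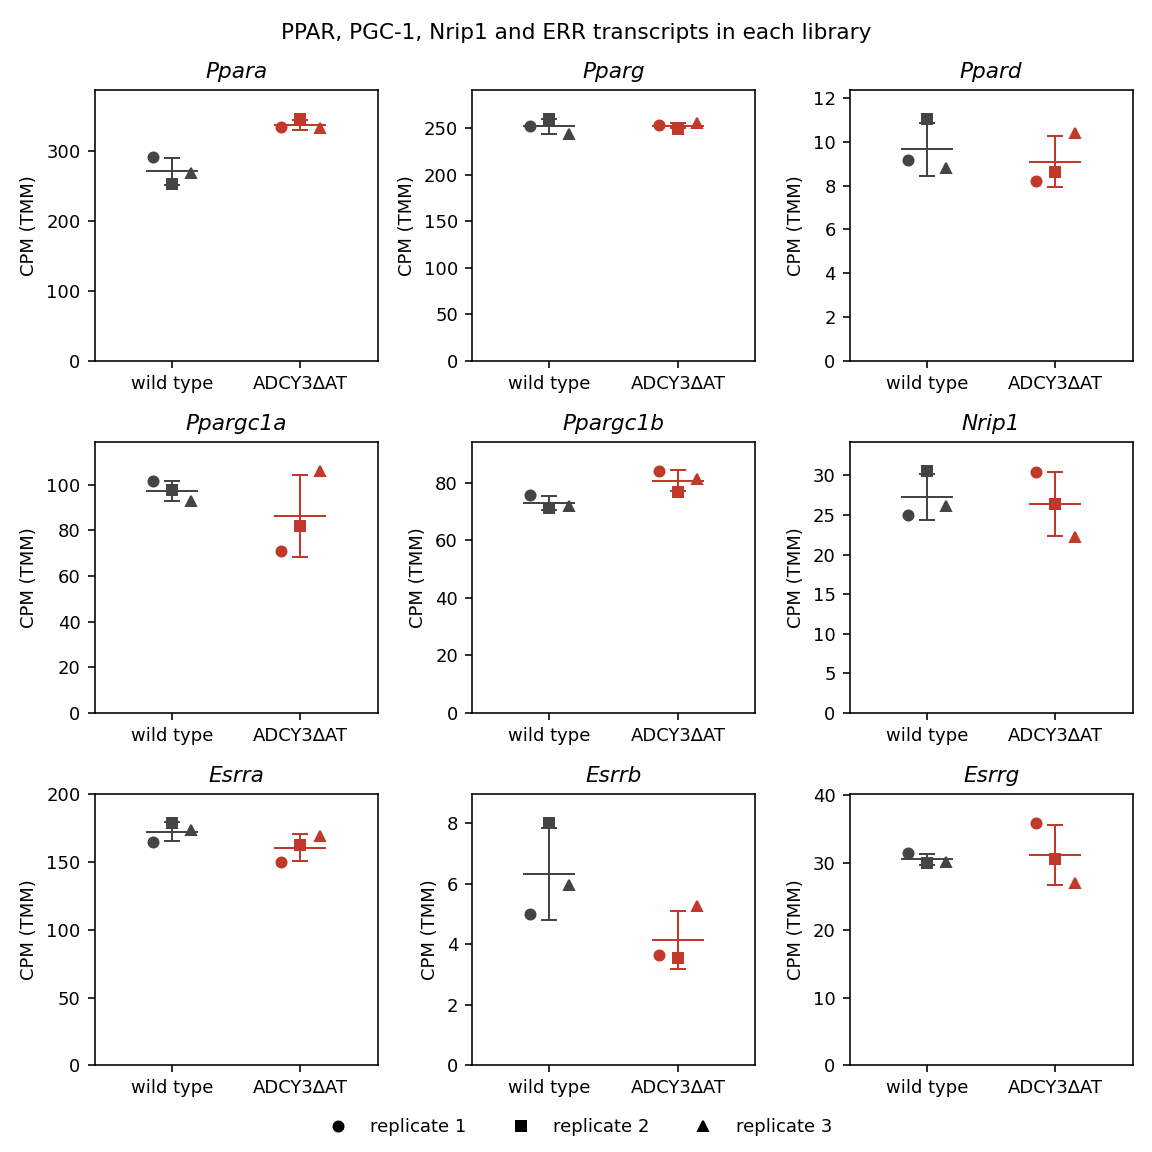
Each panel plots 1 regulator in CPM (counts scaled to a common library size with TMM factors) on an axis from 0, with a point per library, a horizontal line at the mean and a bar of 1 SD (n = 3 libraries per genotype). Ppara and Ppargc1b are the regulators whose 3 ADCY3∆AT libraries all sit above the 3 wild-type libraries, and Ppargc1a spreads widest in ADCY3∆AT, from 71.0 to 106.0 CPM.

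Ppara (ENSMUSG00000022383, plus strand of chromosome 15, 85734983 to 85802819, GRCm38) encodes PPARα, the receptor that switches on fatty acid oxidation. Values are CPM, counts scaled to a common library size with TMM factors. Ppara had 291.7, 253.0 and 269.3 CPM in wild-type replicates 1, 2 and 3, against 334.7, 346.3 and 332.6 CPM in replicates 1, 2 and 3 of ADCY3∆AT, the order used throughout. Every ADCY3∆AT library lay above every wild-type library, and the ADCY3∆AT libraries lay close together. Wild type averaged 271 ± 19.4 CPM and ADCY3∆AT 338 ± 7.4 CPM (SD, n = 3 each), and the log2 fold change, ADCY3∆AT relative to wild type, was 0.32 ± 0.06 (SE, 95% interval 0.17 to 0.46), or 1.25-fold. It missed the threshold in edgeR (adjusted p = 0.158, rank 99 of 18114 genes by p) and limma voom (adjusted p = 0.21), while DESeq2 called it (adjusted p = 0.00227), as did edgeR with no low-count filter (adjusted p = 0.0317). Leaving out each library in turn gave log2 fold changes from 0.27 to 0.37, with adjusted p-values from 0.0926 to 0.622 in edgeR.

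Pparg (ENSMUSG00000000440, plus strand of chromosome 6, 115360951 to 115490399) encodes the master receptor of adipocyte differentiation. It had 252.3, 259.9 and 243.8 CPM in wild type, against 253.2, 249.2 and 254.9 in ADCY3∆AT. The groups overlapped fully, and the log2 fold change was 0.00 ± 0.05 (SE), with a 95% interval from -0.11 to 0.11. Its level thus bounds the genotype difference to a narrow range in the same libraries in which Ppara lay higher.

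Ppard (ENSMUSG00000002250, plus strand of chromosome 17, 28232700 to 28301474), the broadly expressed PPARδ, was rare, with 376 to 503 estimated counts per library. Its values were 9.17, 11.1 and 8.79 CPM in wild type, against 8.22, 8.64 and 10.4 in ADCY3∆AT. The groups overlapped, with a log2 fold change of -0.09 ± 0.12 (SE) and a 95% interval from -0.37 to 0.20, so differences within that range are not excluded.

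Ppargc1a (ENSMUSG00000029167, minus strand of chromosome 5, 51454250 to 51567726) encodes PGC-1α, the cold-inducible coactivator. It had 101.4, 97.9 and 92.7 CPM in wild type, against 71.0, 81.9 and 106.0 in ADCY3∆AT. Replicates 1 and 2 of ADCY3∆AT lay below all wild-type libraries, and replicate 3 lay above all of them. The log2 fold change was -0.17 ± 0.13 (SE, 95% interval -0.47 to 0.12), and it did not pass in edgeR (adjusted p = 0.664) or DESeq2 (adjusted p = 0.843). Without ADCY3∆AT replicate 3 it was -0.35 (edgeR adjusted p = 0.102), and without replicate 1 it was -0.05 (edgeR adjusted p = 0.918), so the size of the difference rests on which ADCY3∆AT libraries are kept.

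Skeletal muscle also expresses Ppargc1a, Ppard and the ERRs, and muscle transcripts differed between the libraries. The summed level of 30 muscle markers was 2726, 1849 and 4817 CPM in wild type, against 265, 663 and 967 in ADCY3∆AT, and 29 of the 30 were lower on average in ADCY3∆AT. In ADCY3∆AT replicate 1, Ckm, Myh7, Ryr1 and Pvalb were listed at 0. Within ADCY3∆AT, replicate 1 was lowest and replicate 3 highest for both the muscle sum and Ppargc1a, whereas in wild type replicate 3 had the highest muscle sum and the lowest Ppargc1a. The part of muscle in these values was not tested. In bulk tissue, fewer cells of a type and less RNA per cell cannot be told apart.

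Ppargc1b (ENSMUSG00000033871) encodes PGC-1β, the paralogous coactivator of mitochondrial genes, which depends less on cold. It had 75.9, 71.4 and 72.0 CPM in wild type, against 84.1, 76.8 and 81.2 in ADCY3∆AT. All 3 ADCY3∆AT libraries lay above the wild-type ones, the nearest by under 1 CPM. The log2 fold change was 0.14 ± 0.06 (SE, 95% interval 0.02 to 0.27), which missed the threshold in edgeR (adjusted p = 0.404) and DESeq2 (adjusted p = 0.585).

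Nrip1 (ENSMUSG00000048490, minus strand of chromosome 16, 76287400 to 76373827), the corepressor, had 25.1, 30.5 and 26.1 CPM in wild type, against 30.4, 26.4 and 22.2 in ADCY3∆AT. The groups overlapped, with a log2 fold change of -0.05 ± 0.12 (SE, 95% interval -0.32 to 0.23). Its highest ADCY3∆AT value was in replicate 1 and its lowest in replicate 3, the reverse of Ppargc1a.

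Among the ERRs, Esrra (ENSMUSG00000024955, minus strand of chromosome 19, 6910977 to 6921813) encodes ERRα, the main partner of PGC-1α on mitochondrial genes. It had 165.2, 178.6 and 174.0 CPM in wild type, against 150.0, 163.0 and 169.2 in ADCY3∆AT. The lowest values were in ADCY3∆AT replicates 1 and 2, but replicate 3 lay above wild-type replicate 1. The log2 fold change was -0.10 ± 0.06 (SE, 95% interval -0.24 to 0.04, edgeR adjusted p = 0.593), and -0.06 without ADCY3∆AT replicate 1. An exon of Trmt112 on the opposite strand overlaps Esrra exons, and whether counting used strand is not given, but Trmt112 averaged 302.4 estimated counts against 7938 for Esrra.

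Esrrg (ENSMUSG00000026610, plus strand of chromosome 1, 187608791 to 188214885) encodes ERRγ, which is abundant in oxidative tissues. It had 31.5, 30.0 and 30.1 CPM in wild type, against 35.8, 30.6 and 26.9 in ADCY3∆AT. Replicate 1 of ADCY3∆AT was the highest library and replicate 3 the lowest, so the wild-type values lay inside the ADCY3∆AT range. The log2 fold change was 0.03 ± 0.10 (SE, 95% interval -0.19 to 0.25).

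Esrrb (ENSMUSG00000021255, plus strand of chromosome 12, 86361117 to 86521628), best known from stem cells, was the rarest regulator, with 166 to 352 estimated counts per library. It had 5.01, 7.99 and 5.97 CPM in wild type, against 3.63, 3.54 and 5.25 in ADCY3∆AT. Replicates 1 and 2 of ADCY3∆AT lay below every wild-type library, and replicate 3 overlapped wild type. The log2 fold change of -0.61 ± 0.21 (SE, 95% interval -1.10 to -0.12) was the farthest from 0 of the 9, and it did not pass in edgeR (adjusted p = 0.362) or DESeq2 (adjusted p = 0.192). Without wild-type replicate 2 it was -0.41 and without ADCY3∆AT replicate 3 it was -0.82. The muscle sums given above differed between the same libraries, and their part in Esrrb was not tested.

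**Figure D2:**
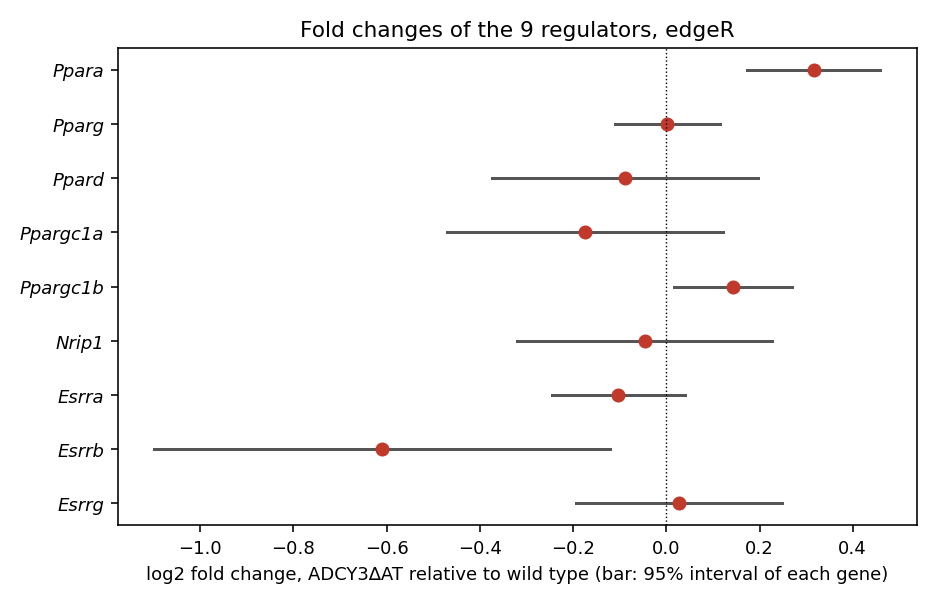
Points are edgeR log2 fold changes of ADCY3∆AT relative to wild type for the 9 regulators, and bars are 95% intervals of each gene, not adjusted for the number of genes. The intervals of Ppara and Ppargc1b lie above 0 and that of Esrrb below 0, while the interval of Ppargc1a, from -0.47 to 0.12, includes 0.

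Ratios of 2 regulators within a library need no scaling between libraries, and 4 pairs were compared with an exact two-sided permutation test over the 6 libraries, whose smallest possible p is 0.1. The log2 ratio of Ppara to Ppargc1a counts was 1.52, 1.37 and 1.54 in wild type, against 2.24, 2.08 and 1.65 in ADCY3∆AT. All ADCY3∆AT libraries lay above all wild-type libraries, with replicate 3 nearest. The means were 1.48 ± 0.09 and 1.99 ± 0.30 (SD, n = 3 each), a difference of 0.51 or 1.43-fold (exact p = 0.1, adjusted over 4 ratios 0.2), and 0.39 without ADCY3∆AT replicate 1. All 4 pairs were chosen with earlier results of these data known, so each ratio gives a size and is not independent support for a shift. Behind the Ppara to Ppargc1a ratio, the edgeR log2 fold changes were 0.32 for Ppara and -0.17 for Ppargc1a, and the latter rests on ADCY3∆AT replicates 1 and 2.

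The Ppara to Pparg log2 ratio was 0.21, -0.04 and 0.14 in wild type, against 0.40, 0.47 and 0.38 in ADCY3∆AT. The groups did not overlap, and the difference in means was 0.32 (exact p = 0.1, adjusted 0.2). Pparg had an edgeR log2 fold change of 0.00 and Ppara of 0.32, so this ratio mostly repeats the Ppara difference. For Ppargc1b to Ppargc1a the log2 ratio was -0.42, -0.46 and -0.37 in wild type, against 0.24, -0.09 and -0.38 in ADCY3∆AT. Here ADCY3∆AT replicates 1 and 2 lay above wild type and replicate 3 lay among the wild-type libraries (difference 0.34, exact p = 0.2, adjusted 0.267). For Nrip1 to Ppargc1a the difference was 0.14 (exact p = 0.7), and it changed sign without ADCY3∆AT replicate 1.

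**Figure D3:**
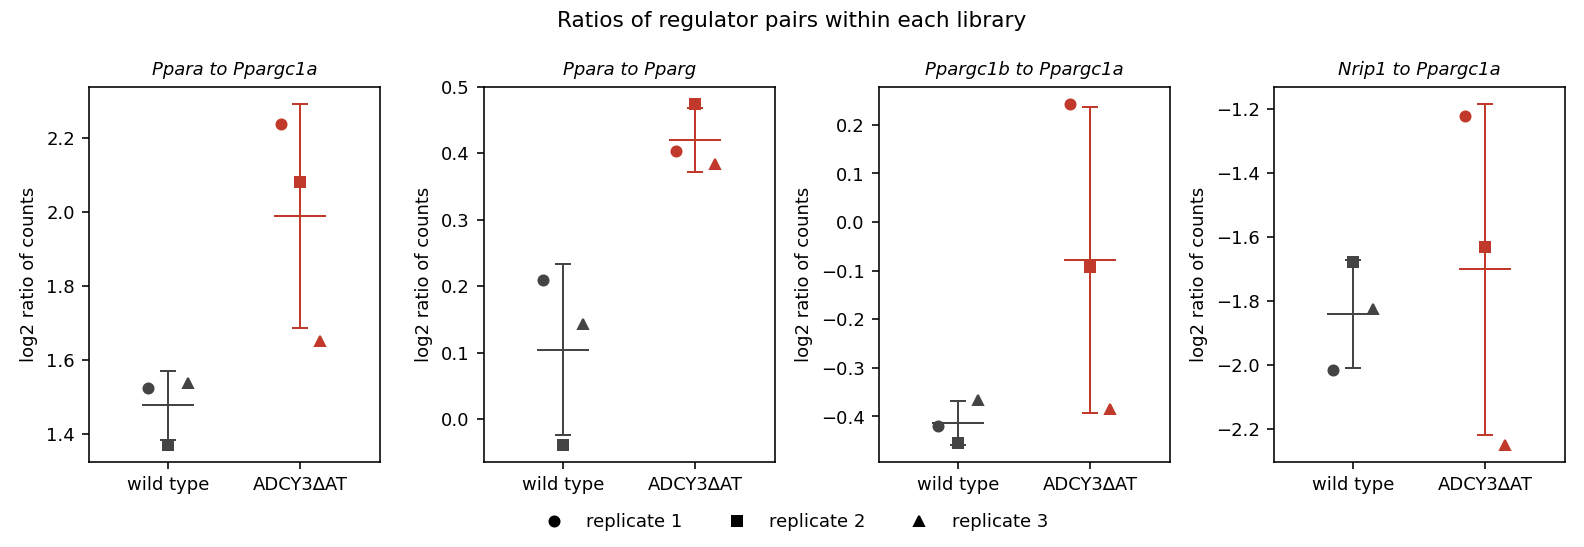
Each panel plots the log2 ratio of the counts of 2 regulators in each library, with the mean and 1 SD per genotype (n = 3). The vertical axes do not start at 0 and differ between panels. Ppara to Ppargc1a and Ppara to Pparg separate the genotypes, and ADCY3∆AT replicate 3 falls among or below the wild-type libraries in the other 2 panels.

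Levels of different genes were compared per kilobase of merged exons. In wild type the order was Pparg (85.3 ± 2.7 CPM per kilobase), Ppara (70.7 ± 5.1), Esrra (39.3 ± 1.5), Ppargc1b (18.3 ± 0.6), Ppargc1a (14.8 ± 0.7), Esrrg (4.92 ± 0.13), Nrip1 (2.38 ± 0.25), Ppard (1.29 ± 0.16) and Esrrb (1.05 ± 0.25; SD, n = 3 each). Ppard and Esrrb overlapped between libraries. The receptors PPARγ, PPARα and ERRα thus had the most abundant transcripts, and PPARδ and ERRβ the scarcest. In ADCY3∆AT, Ppara had 88.1 ± 1.9 CPM per kilobase and Pparg 85.5 ± 1.0, so their order was exchanged. With the longest protein-coding transcript as length, Ppara stayed below Pparg in ADCY3∆AT (99.0 against 118.8 CPM per kilobase), so that exchange depends on the length used.

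Genes around the regulators were read from 6 lists, beside 5.23% of all genes higher and 5.78% lower at an unadjusted p under 0.05. No member of any list passed in edgeR over all genes. In these libraries the muscle markers lay at a median of -3.07 (log2 fold change), and several genes named next are also expressed in muscle; its part was not tested.

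Of 49 tested PPAR target genes, 22 lay above 0 and 27 below, and the median log2 fold change was -0.01. At an unadjusted p under 0.05, 3 were higher and 4 lower, and DESeq2 called Txnip higher and Gk lower. Gk, the glycerol kinase that traps glycerol for lipid synthesis, had 987, 1067 and 1017 CPM in wild type, against 757, 790 and 928 in ADCY3∆AT (log2 fold change -0.31 ± 0.08, SE). Ucp3, an uncoupling protein homologue abundant in muscle, had 115.0, 99.7 and 91.8 CPM in wild type, against 80.8, 79.0 and 87.0 in ADCY3∆AT (-0.31 ± 0.09). Both were lower in all 3 ADCY3∆AT libraries. Txnip, an inhibitor of thioredoxin and glucose uptake, lay higher in all 3, with 493, 527 and 551 CPM in wild type, against 806, 653 and 587 in ADCY3∆AT (0.38 ± 0.11). Target genes of PPARs thus lay on both sides of 0 in the libraries in which Ppara lay higher.

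The 50 PGC-1 and ERR target genes, mostly of respiration and the citric acid cycle, had small differences. The list includes Esrra, 1 of the 9 regulators. Of the 50, 40 lay below 0 and 10 above, where 50.9% of all genes tested lay above 0. Groups did not overlap for 6, all lower in ADCY3∆AT (8.83% of all genes were lower without overlap). The median log2 fold change was -0.04, and 1 was higher and 1 lower at an unadjusted p under 0.05. The lower gene, Perm1, an ERR and PGC-1 responsive regulator of muscle mitochondria, had 128.4, 137.9 and 126.2 CPM in wild type, against 103.3, 103.1 and 116.4 in ADCY3∆AT. Its groups did not overlap, and the log2 fold change of -0.28 ± 0.07 (SE) passed in DESeq2 (adjusted p = 0.0231) and not in edgeR (adjusted p = 0.216). The higher gene, Pdk4, the kinase that shuts off pyruvate dehydrogenase and a target of both PPARs and ERRs, had 0.36 ± 0.13 with overlapping groups, since wild-type replicate 1 had 1768 CPM against 1194 and 1273 CPM in the other wild-type libraries. Idh3a, of the citric acid cycle, had -0.10 ± 0.05. Ucp1 itself had -0.06 ± 0.04.

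The RXR partners had fold changes near 0 and overlapping groups. Rxra, Rxrb and Rxrg had log2 fold changes of -0.02 ± 0.06, 0.00 ± 0.06 and 0.10 ± 0.07 (SE), and Prdm16, a coregulator of brown fat identity, had 0.03 ± 0.09. Of 29 tested partners and coregulators, 2 were higher and 4 lower at an unadjusted p under 0.05, with none called by DESeq2. Ncoa3, a p160 coactivator, had 34.1, 35.1 and 35.3 CPM in wild type, against 38.9, 40.4 and 40.8 in ADCY3∆AT (0.20 ± 0.05), without overlap. Its family member Ncoa1 lay the other way (-0.21 ± 0.07), as did the unrelated Ncoa4, known for delivering ferritin to autophagy (-0.22 ± 0.07). Pprc1, the third PGC-1 family member, had 7.44, 8.67 and 7.96 CPM in wild type, against 6.21, 6.99 and 6.82 in ADCY3∆AT (-0.26 ± 0.10, edgeR adjusted p = 0.387). The 3 coactivators of the PGC-1 family had fold changes of both signs, with Ppargc1b positive and Ppargc1a and Pprc1 negative.

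Regulators that act on Ppargc1a gave 2 higher and 4 lower of 42 tested at an unadjusted p under 0.05, and none in DESeq2. Crtc3, a coactivator of CREB, had 0.27 ± 0.07 (SE), and Prkaa2, a catalytic subunit of the energy sensor AMPK, had -0.26 ± 0.07, both without overlap between groups. Map2k3, a kinase of p38, had 18.6, 19.3 and 16.0 CPM in wild type, against 11.7, 13.3 and 16.1 in ADCY3∆AT (-0.40 ± 0.12), with replicate 3 again among the wild-type values.

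The list of PPAR ligand supply had 5 of 24 tested members higher and 4 lower at an unadjusted p under 0.05, with a median log2 fold change of 0.03. Abhd5, the activator of adipose triglyceride lipase, had -0.24 ± 0.06 (SE). Elovl3, a fatty acid elongase, had -0.38 ± 0.11 and was the only member called by DESeq2 (adjusted p = 0.0332). Fasn, fatty acid synthase, had 1736, 1410 and 1832 CPM in wild type, against 5303, 4080 and 1661 in ADCY3∆AT (1.15 ± 0.35). Replicates 1 and 2 of ADCY3∆AT lay far above wild type and replicate 3 among it, the same libraries that lay low for Ppargc1a.

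Within the nuclear receptor family, 36 of 49 receptors were tested and Ppara was the only one higher at an unadjusted p under 0.05 and the only one called by DESeq2. Lower at that p were 4, namely Rorb (-0.68 ± 0.17, SE), Nr4a3 (-0.99 ± 0.32), Nr4a2 (-0.63 ± 0.23) and Esrrb, all of them under 9 CPM in every library. The median of the family was -0.02 on the log2 scale.

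**Figure D4:**
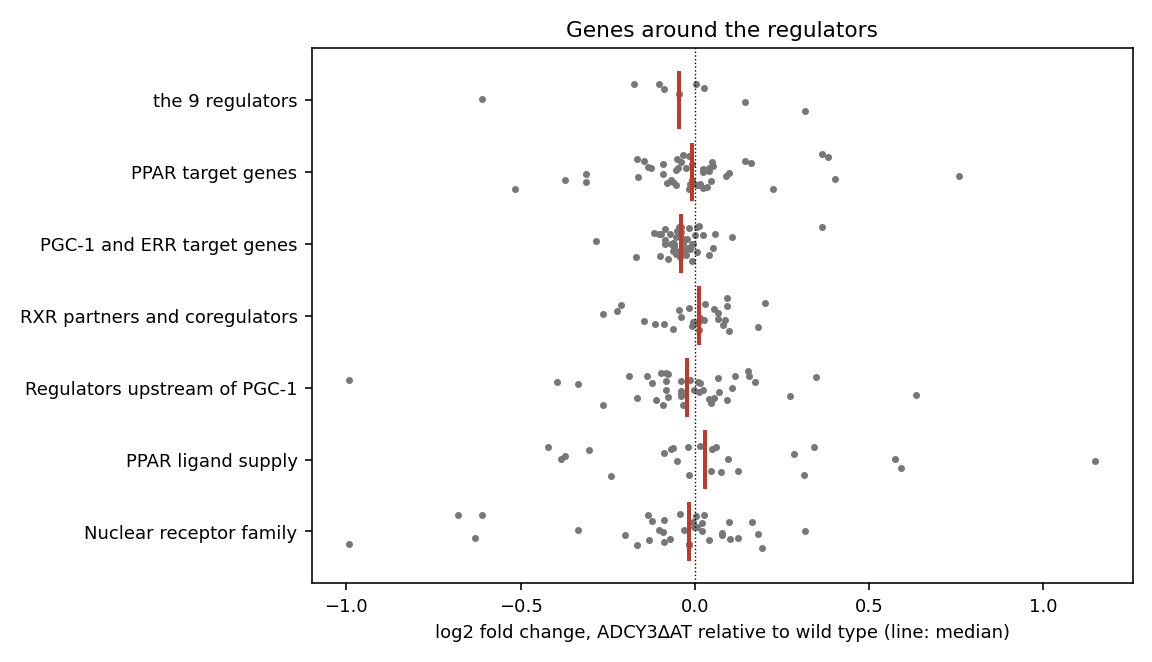
Each point is the edgeR log2 fold change of a tested gene, ADCY3∆AT relative to wild type, in the 9 regulators and 6 lists around them, and red lines are medians. Points are spread vertically to separate them. All medians lie between -0.05 and 0.03, and most PGC-1 and ERR targets lie in a narrow band near 0.

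The genes with patterns most like Ppara and Ppargc1a were found by the root mean square difference of log2 CPM over the 6 libraries, each gene centred on its mean, among 10963 named genes whose log2 CPM averaged at least 1. Nearest to Ppara were Zbtb2 (0.024 on the log2 scale), Prkch (0.040), Magi1 (0.042), Ptpre (0.043) and Brd1 (0.047), where a gene with no variation would have 0.171. Nearest to Ppargc1a were Man2a1 (0.020), Rcl1 (0.021), Cbr1 (0.046), Haus7 (0.047) and the glucose transporter Slc2a1 (0.050), against 0.198 for a gene with no variation. Man2a1 had 88.3, 87.3 and 83.6 CPM in wild type, against 62.8, 71.0 and 92.9 in ADCY3∆AT, with replicate 3 highest as for Ppargc1a. With 6 libraries these are descriptions of shape.

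The labels were checked by the targeted gene and by markers. Adcy3 was read from the row of the gene as a whole (ENSMUSG00000020654), which does not single out the AT form. It had 652 to 728 CPM in wild type and 342 to 506 CPM in ADCY3∆AT, where replicate 3 was the highest. Its adjusted p was 4.26e-07 by DESeq2 and 0.158 by edgeR. These values do not give the extent of the knockout of the AT form. All 15 brown adipocyte markers were detected in every library, with a summed level from 16899 to 17252 CPM in wild type and from 15713 to 16288 CPM in ADCY3∆AT. The summed level ranged from 1739 to 1794 CPM and 1829 to 1967 CPM for 14 endothelial markers, from 159 to 240 and 177 to 256 CPM for 14 macrophage markers, from 560 to 674 and 661 to 740 CPM for 14 fibroblast markers, and from 8694 to 8880 and 8387 to 9272 CPM for 14 adipocyte markers, of which Wt1 was at 0 in 5 libraries. Ucp1 alone averaged 10486 of the 17113 CPM of the brown adipocyte sum in wild type. Of the brown adipocyte markers 12 had negative and 3 positive log2 fold changes, with 5 lower without overlap (8.83% of all genes). Of the endothelial markers 12 were positive and 2 negative, with 7 higher without overlap (7.68% of all genes). Macrophage and fibroblast markers each had 12 positive and 2 negative. The cause was not tested. On the first principal component, with 38.1% of the variance, ADCY3∆AT replicate 3 lay nearest to wild type. Library totals were from 44826777 to 54933588 estimated counts.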

How the data were processed

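Paired-end total RNA libraries of 6 samples were compared, 3 per genotype. The authors deposited 1 table of estimated counts, unscaled, with a row per Ensembl gene. The submitters' processing notes name StringTie, Salmon, edgeR and GRCm38 with no role, version or setting. The depot is interscapular in all sample labels, which were followed, and inguinal in the series design. Symbols came from GENCODE M21 (54131 of 54385 rows). Counts were rounded, filtered with filterByExpr, scaled by TMM and tested with edgeR 4.0.16 (R 4.3.3), genotype being its single term, with Benjamini-Hochberg adjustment over all 18114 genes; standard errors and intervals are those implied by the F statistic. Alternatives used DESeq2 1.42.0 and limma 3.58.1, other scalings and filters, each library left out, and the replicate number as a block. The test was tried on simulated data. CPM are TMM-normalised, log2 CPM used a prior count of 2, and ratios had 0.5 added to each count. No libraries agreed within sampling noise (chi-square per degree of freedom 24.1 to 71.7). Estimated counts of related or overlapping genes depend on how the quantifier divided reads.

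The regulators, lists and alternatives were chosen with earlier results of these data known. Named genes are the 9 regulators, Adcy3, the 3 tested members of each list with the lowest p, the RXR partners, Prdm16 and Pprc1, and the 5 genes of nearest pattern for Ppara and Ppargc1a. Ucp1, Nr4a2, Trmt112 and markers at 0 were added after values were seen. Promoter windows came from a RefSeq table (GRCm38.p6), matched by symbol for 8 of the 9 regulators. Windows on chromosome 18, where Ppargc1b lies, were not scanned for the regulators.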

Additional observations from a re-analysis of the deposited data

How the results depend on the processing

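The count of all genes called, 1 in edgeR, was 229 in DESeq2, 214 with no low-count filter, 2 in limma voom, 2 with robust estimation, 3 with the replicate block and from 1 to 66 with each library left out, highest without ADCY3∆AT replicate 3; the cause was not tested. The count of regulators called, 0 in edgeR, was 1 (Ppara) in DESeq2 and 1 with no low-count filter, and 0 elsewhere. Ppara, Ppargc1a, Ppargc1b, Esrra and Esrrb kept their sign in all 16 alternatives. The log2 fold changes of genes near 0 changed sign with a library left out: Pparg ran from -0.021 (without wild-type replicate 3, and below 0 also without ADCY3∆AT replicates 1 and 3) to 0.025, Ppard from -0.20 to 0.017 (without wild-type replicate 2), Esrrg from -0.086 (without ADCY3∆AT replicate 1) to 0.12, and Nrip1 from -0.16 to 0.061 (without ADCY3∆AT replicate 3, and 0.043 without wild-type replicate 2). The Nrip1 to Ppargc1a log2 ratio ran from -0.10 to 0.41 with libraries left out, and was below 0 without ADCY3∆AT replicate 1. Removing the 30 muscle markers before scaling left Ppara at 0.32 and Ppargc1a at -0.17. That step takes no muscle reads out of either row, so it cannot show the part of muscle. RLE factors and library totals moved the median of all genes by -0.0011 and 0.015 on the log2 scale.

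The labels state no link between same-numbered libraries beyond the number. Their deviations from the group means correlated at -0.09, -0.13 and -0.09. With 3 libraries per group the deviations in a group cancel out, so these values cannot exclude a shared batch. With the replicate block Ppara was 0.32 (edgeR adjusted p = 0.376) and Ppargc1a -0.19 (0.741), and the Ppara to Ppargc1a difference stayed 0.51 (exact sign-flip p = 0.25, the smallest that 3 pairs allow); the block called no regulator.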

Other observations

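Inside Ppargc1a on the same strand lie 3 rows of transcripts of the annotation class TEC whose exons do not overlap those of Ppargc1a (Gm42614, Gm42615 and Gm43605, minus strand of chromosome 5, from 51482752 to 51514293), singled out after their values were seen. The most abundant, Gm43605, had 9.39, 7.74 and 10.7 CPM in wild type, against 7.24, 8.35 and 15.6 in ADCY3∆AT, highest in ADCY3∆AT replicate 3 as Ppargc1a was. Its log2 fold change was 0.16 ± 0.27 (SE), and those of Gm42614 and Gm42615 were -0.15 ± 0.31 and -0.04 ± 0.31, none past the threshold in edgeR. Both of these also had their highest value in ADCY3∆AT replicate 3, at 4.22 and 8.89 CPM.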
